A study of Mus musculus with 6 samples.

Results

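The genes described here encode the 7 subunit isoforms of AMP-activated protein kinase (AMPK): *Prkaa1*, *Prkaa2*, *Prkab1*, *Prkab2*, *Prkag1*, *Prkag2* and *Prkag3*. They were chosen by gene symbol among the 19831 genes listed for inguinal adipose tissue (iAT), the subcutaneous fat depot of the groin of the mouse, and all 7 were found. RNA sequencing compared 3 wild-type samples with 3 samples of Npffr1-KO mice, which lack the receptor for neuropeptide FF encoded by *Npffr1*. All 6 samples were iAT taken at postnatal day 6 from animals kept under pathogen-free conditions, with RNA extracted in TRIzol, and no treatment or further allele is named for either genotype. The paper's methods name male C57BL/6 mice for this age without tying them to these samples, and the strain of the Npffr1-KO mice and whether a sample was 1 animal are not stated, so the spread between samples may be partly technical.

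AMPK is a heterotrimer of a catalytic alpha subunit, a scaffold beta subunit that also binds glycogen, and a gamma subunit that binds AMP, ADP and ATP and so reads the energy state of the cell. It is switched on when an upstream kinase phosphorylates a threonine in the activation loop of the alpha subunit, and it then restrains fatty acid and sterol synthesis and growth and favours nutrient uptake, oxidation and autophagy. In fat it acts on acetyl-CoA carboxylase and on hormone-sensitive lipase. Each subunit exists in isoforms with different tissue distributions: *Prkaa2* and *Prkab2* are prominent in skeletal muscle, and *Prkag3* is best known from fast glycolytic muscle.

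The deposited table gives 1 value per gene and genotype, in read counts normalized for library size (normalized counts), without an error. These genotype values are not means of the 3 libraries, and where the libraries could be worked out their ratio was smaller in size than that of the library means. Summed over all genes they came to 23137343 (wild-type) and 23640005 (Npffr1-KO). Of the subunits, 2 stood apart between the genotypes, *Prkag3*, which was higher, and *Prkab2*, which was lower, and the other 5 differed by less than the fold used here for a call. That fold was a log2 ratio of Npffr1-KO to wild-type of 0.5 in size, a 1.41-fold difference, in genes whose genotype values average at least 10, which all 7 subunits did. Of the 15309 genes with such an average, 4.37% were higher and 4.78% were lower by this measure, and 3.36% and 5.17% after centring on genes of like length. At an uncentred log2 ratio of 0.3 in size, *Prkag3* and *Prkab2* were again the subunits past the fold, where 13.7% of all genes were higher and 12.9% lower. After centring on genes of like length, *Prkaa2* also passed 0.3, at 0.43. At an uncentred ratio of 1 it was *Prkag3* alone, where 0.483% were higher and 0.314% lower. The subunits were proposed for description with these ratios known, so their counts and ratios are descriptions and carry no p-value. For 2 subunits with few reads, *Prkag3* and *Prkaa2*, the reads in each library could be worked out from the deposited values. The libraries are called a, b and c within each genotype, and these letters are not tied to the sample numbers.

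The library Npffr1-KO a stood apart in the skeletal muscle genes *Ckm* and *Myh1*. This does not hold for all muscle markers. As given further below, *Tnnt3* had many reads in Npffr1-KO b and c in both of its matching combinations, and *Mylpf* and *Tnni2* were unresolved. *Ckm*, muscle creatine kinase, had 1.93, 2.94 and 1.98 normalized counts in wild-type a, b and c against 207.2, 1.01 and 6.55 in Npffr1-KO a, b and c. *Myh1*, a fast myosin heavy chain, had 1.93, 5.87 and 3.97 against 278.5, 0 and 0, while the fast myosin *Myh4* was listed with 1 read in all, in the same library. The targeted gene *Npffr1* had 1, 0 and 5 reads in wild-type a, b and c against 0 in each Npffr1-KO library, where 0 reads still allow up to 3. Markers of adipocytes were abundant in both genotypes, led by the fatty acid binding protein *Fabp4* with 156285 and 173188 normalized counts. The log2 ratios also moved with gene length, from a median of 0.27 in the shortest of 20 length classes to -0.15 in the longest, so each subunit is given beside a value centred on genes of like length.

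Divided by the listed gene length, the gamma subunit *Prkag1* was the most abundant subunit RNA in iAT and *Prkag3* the least. In wild-type the levels were 983 normalized counts per kilobase for *Prkag1*, 684 for *Prkag2*, 590 for *Prkab1*, 326 for *Prkaa1*, 94.9 for *Prkab2*, 17.5 for *Prkaa2* and 3.98 for *Prkag3*. The order was the same in Npffr1-KO, with 1113 for *Prkag1*, 747 for *Prkag2*, 640 for *Prkab1*, 274 for *Prkaa1*, 63.5 for *Prkab2*, 21.3 for *Prkaa2* and 10.5 for *Prkag3*. In both genotypes each family thus had 1 leading isoform, except the gamma family, in which 2 isoforms were close. Neighbours in this order can be compared with their spread only at its lower end. There, all libraries of *Prkaa2*, from 16.6 to 23.9 per kilobase, lay above all libraries of *Prkag3*, from 1.38 to 13.5. As normalized counts not divided by length, the wild-type values of the 7 genes lay between the percentile 23.6 of all listed genes, for *Prkag3*, and the percentile 85.5, for *Prkag2*.

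**Figure D1:**
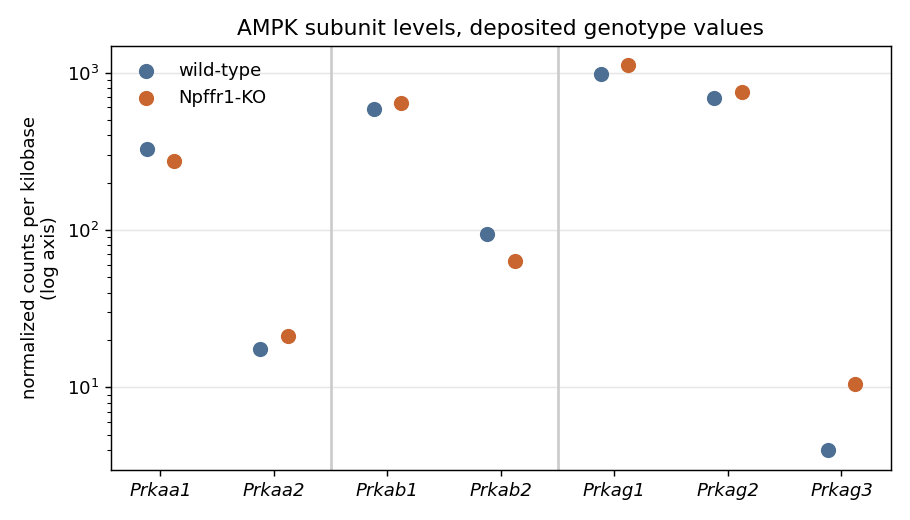
Deposited genotype values of the 7 AMPK subunit genes in iAT, in normalized counts per kilobase of listed gene length on a log axis. Each point is 1 genotype value without an error, wild-type in blue and Npffr1-KO in orange, and grey lines separate the alpha, beta and gamma families. Levels run from 3.98 for *Prkag3* to 983 for *Prkag1* in wild-type, and the order of the genes is the same in Npffr1-KO.

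The catalytic subunits are encoded by *Prkaa1* (Entrez 105787, alpha1) on the plus strand of chromosome 15 (5143861 to 5181899, mouse build GRCm38), and by *Prkaa2* (Entrez 108079, alpha2) on the minus strand of chromosome 4 (105029874 to 105109890). Places are those of the GENCODE M21 annotation, and the sources used here do not name the build behind the deposited values. Both genes carry the activation loop threonine in exon 5 of 9. The reference coding sequence around it is shown because both isoforms keep this switch while their RNA levels differ; the threonine codon is in capitals, and 6 of 30 bases differ between the isoforms, which lie at chr15:5169955-5169984 on the plus strand and chr4:105049366-105049395 on the minus strand.
Prkaa1: gaatttttaagaACAagctgtggctcaccc
Prkaa2: gaatttctacgaACTagctgtggatcgcca
Despite such likeness, 0.108% of the 31-base sequences of *Prkaa1* and 0.0630% of those of *Prkaa2* occur in another gene, so their reads can be told apart almost throughout.

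*Prkaa1* was the main catalytic isoform in both genotypes. Its deposited value was 1517 normalized counts in wild-type against 1277 in Npffr1-KO, a log2 ratio of -0.25, or -0.15 when centred on genes of like length. *Prkaa2* went the other way, from 143.5 to 174.7, a log2 ratio of 0.28, or 0.43 when centred on genes of like length. Neither ratio reached 0.5 in size.

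The libraries showed how *Prkaa2* varied within the genotypes. The wild-type libraries had 155.5, 136.1 and 137.0 normalized counts, and the Npffr1-KO libraries had 168.6, 195.8 and 161.5. The lowest Npffr1-KO library lay above the highest wild-type library, by less than the spread within either genotype, and the means were 143 ± 10.96 and 175 ± 18.1 (SD, n = 3 each). The log2 ratio of these means was 0.30, and it was 0.32 without the library Npffr1-KO a. Genotypes that do not overlap were also seen in 28% of 25 sampled genes with an average between 100 and 160, which is the background for this statement. In all, 3 combinations of reads matched the deposited average of *Prkaa2*, and the one used is that whose ratio of library means also matched the deposited ratio. In both other combinations the genotypes overlapped, with wild-type libraries from 61.8 to 244.7 against Npffr1-KO libraries from 92.7 to 249.6 in one, and from 75.4 to 234.7 against 86.8 to 203.3 in the other.

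As a share of the summed alpha level per kilobase, *Prkaa1* made up 94.9% in wild-type and 92.8% in Npffr1-KO, and *Prkaa2* 5.09% and 7.20%. The alpha1 level was thus 18.6-fold that of alpha2 in wild-type and 12.9-fold in Npffr1-KO. The sum of the 2 catalytic isoforms was 343 per kilobase in wild-type and 296 in Npffr1-KO, a log2 ratio of -0.22, which followed *Prkaa1*. Shares and sums were not centred on genes of like length, whose median log2 ratio was -0.097 for *Prkaa1* and -0.146 for *Prkaa2*. The error of these shares is not known, since reads per library were not worked out for *Prkaa1*.

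The scaffold subunits are encoded by *Prkab1* (Entrez 19079, beta1) on the minus strand of chromosome 5 (116013586 to 116024508), and *Prkab2* (Entrez 108097, beta2) on the plus strand of chromosome 3 (97658193 to 97673812). They share no 31-base sequence with each other or with another gene. *Prkab1* had 1211 normalized counts in wild-type against 1313 in Npffr1-KO, a log2 ratio of 0.12, or 0.04 when centred on genes of like length. *Prkab2* was the subunit with the lower value in Npffr1-KO, 271.5 normalized counts against 406.1 in wild-type. Its log2 ratio of -0.58 lay at the percentile 3.19 of the 15309 genes, and it was -0.52 when centred on genes of like length, still past 0.5 in size. The 2 isoforms of this family therefore lay on opposite sides of no difference in both settings.

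No library values are given for *Prkab2*, because combinations of whole reads were searched only up to an average of 210, and its average was 339 normalized counts. Whether its genotypes overlap is not known from the deposited values, and with 1 value per genotype the difference has no replicate check. Exons of the gene *Gm17651* overlap those of *Prkab2* on the other strand, but *Prkab2* shares no 31-base sequence with it on either strand. The sources used here do not say whether the counting used the strand. In bulk tissue, fewer cells that express a gene and less of its RNA per cell cannot be told apart, which holds for this and for the following results.

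By share of the summed beta level per kilobase, *Prkab1* went from 86.1% in wild-type to 91.0% in Npffr1-KO and *Prkab2* from 13.9% to 9.02%. The beta1 level was 6.22-fold that of beta2 in wild-type and 10.1-fold in Npffr1-KO. The family sum was 685 per kilobase against 703, a log2 ratio of 0.04. In it, *Prkab2* went from 94.9 to 63.5 per kilobase and *Prkab1* from 590 to 640, all without an error. These values were not centred, and genes of like length had a median log2 ratio of 0.077 for *Prkab1* and -0.064 for *Prkab2*.

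**Figure D2:**
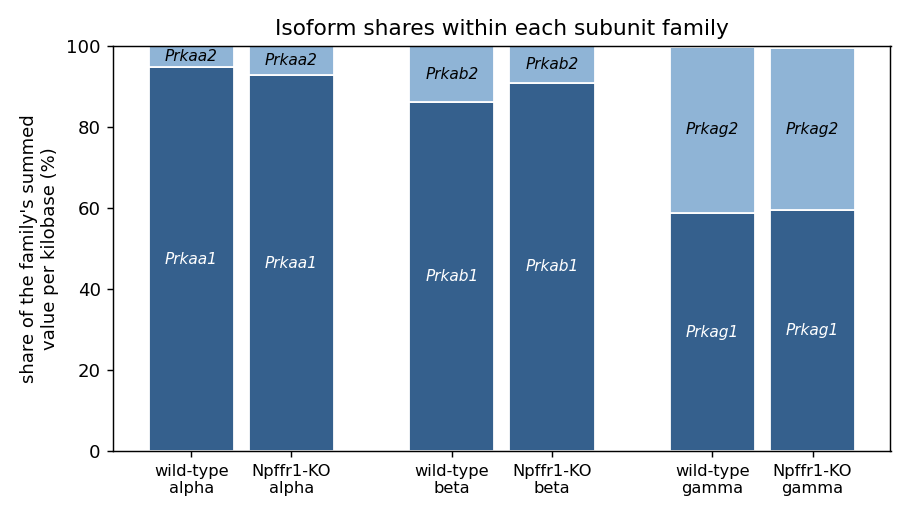
Share of each isoform in the summed level of its family, in percent of normalized counts per kilobase, for the alpha, beta and gamma subunits in wild-type and Npffr1-KO iAT. Bars are deposited genotype values without an error. *Prkab2* took 13.9% of the beta sum in wild-type and 9.02% in Npffr1-KO, and *Prkag3*, with 0.238% and 0.563% of the gamma sum, is the thin strip at the top.

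The nucleotide-binding subunits are encoded by *Prkag1* (Entrez 19082, gamma1) on chromosome 15, from 98812797 to 98831521, *Prkag2* (Entrez 108099, gamma2) on chromosome 5, from 24862744 to 25100642, and *Prkag3* (Entrez 241113, gamma3) on chromosome 1, from 74738922 to 74749221, all on the minus strand. *Prkag1* had 1651 normalized counts in wild-type against 1870 in Npffr1-KO, a log2 ratio of 0.18, or 0.06 when centred on genes of like length. *Prkag2* had 1808 and 1975, a log2 ratio of 0.13, or 0.11 when centred. Both abundant gamma isoforms were thus close to no difference. Of their 31-base sequences, 35.0% of those of *Prkag1* and 12.7% of those of *Prkag2* also occur in antisense genes that overlap them, *B130046B21Rik* for the former and *Prkag2os1* and *Prkag2os2* for the latter. Where reads were not counted by strand, the sense and antisense RNA cannot be told apart. *Prkag2os1* was low beside *Prkag2*, with 37.1 and 40.7 normalized counts per kilobase in wild-type and Npffr1-KO, and its libraries overlapped.

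*Prkag3* was the subunit that differed most between the genotypes. The wild-type libraries held 11, 4 and 12 of its reads, or 10.6, 3.92 and 11.9 normalized counts, and the Npffr1-KO libraries held 28, 38 and 29 reads, or 26.98, 38.3 and 31.6 normalized counts. Every Npffr1-KO library lay above every wild-type library, and the gap between the genotypes was wider than the range within either of them. The means were 8.82 ± 4.29 and 32.3 ± 5.71 (SD, n = 3 each), a log2 ratio of 1.87. Among 196 sampled genes with an average between 5 and 90, searched mostly in a narrower range of reads, the genotypes did not overlap in 18.4%. The 4 to 38 reads per library limit the precision of these values.

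The deposited genotype values of *Prkag3*, 11.3 and 29.9 normalized counts, lay closer together than these means, with a log2 ratio of 1.40, as was also the case for *Brsk2* and *Actn3* and most of all for *Ckm* and *Myh1*, whose deposited log2 ratios of 0.75 and 0.27 stood beside 4.97 and 4.56 from the library means. This ratio stood at the percentile 99.9 of the 15309 genes. Centring on genes of like length left it at 1.40, and a pseudocount of 10 on each value brought it to 0.91. Of the 31-base sequences of *Prkag3*, 1.39% also occurred in other genes, 485 in all, and whether reads of those genes were counted here was not tested.

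**Figure D3:**
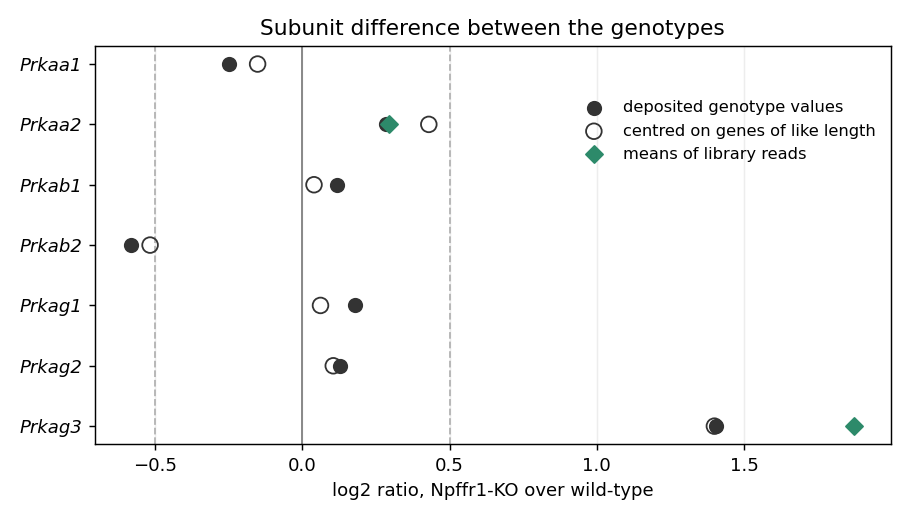
Log2 ratio of Npffr1-KO to wild-type for the 7 AMPK subunit genes, from the deposited genotype values (filled circles), after centring on genes of like length (open circles) and from the means of the library reads where these could be worked out (diamonds). Dashed lines mark 0.5 in size. *Prkag3* at 1.40 and *Prkab2* at -0.58 lie outside the lines and the other 5 genes inside.

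The skeletal muscle markers moved with *Prkag3* in the deposited values. Of 8 markers, 7 had an average of at least 10, and 5 of these were higher in Npffr1-KO, beside 4.37% of all such genes. Skeletal actin, *Acta1*, led them, with 170.6 normalized counts in wild-type against 409.9 in Npffr1-KO. The summed value of the 7 was 465 against 866, a difference that the pulling together of the deposited values understates for *Ckm* and *Myh1*. Reads per library were worked out for *Ckm*, *Myh1*, *Myh4* and *Actn3* of these markers, not for *Acta1*. *Ckm* and *Myh1* had at most 6.55 normalized counts in Npffr1-KO b and c, and *Actn3*, the fast muscle actinin, had 14.5, 5.87 and 21.8 normalized counts in wild-type against 50.1, 11.1 and 18.5 in Npffr1-KO. For *Tnnt3*, *Mylpf* and *Tnni2*, 2 combinations of reads matched each and none was used. Both for *Tnnt3*, a fast troponin subunit, had many reads in Npffr1-KO b and c, with 130.2 and 288.1 normalized counts in one and 92.8 and 197.5 in the other, against wild-type libraries from 26.8 to 164.5 and from 38.7 to 79.2. Those for *Mylpf* and *Tnni2* went either way. Npffr1-KO a had 257.3 normalized counts of *Mylpf* in one and 0.96 in the other, and 264.1 and 7.71 of *Tnni2*. *Prkag3* was lowest in Npffr1-KO a among the Npffr1-KO libraries, with 28 reads. Without this library its Npffr1-KO mean was 35.0 and its log2 ratio 1.99, and the genotypes did not overlap. Without the same library the log2 ratio of *Actn3* went from 0.92 to 0.08. The part of muscle RNA in the *Prkag3* values was not tested.

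Thermogenic adipocyte markers were also higher in Npffr1-KO. Of 6 markers, 5 had an average of at least 10, and 4 of these were past the fold, beside 4.37% of all such genes. In level they were led by the cytochrome oxidase subunit *Cox8b*, with 460.2 normalized counts in wild-type against 1567 in Npffr1-KO. The summed value of the 5 was 1433 against 4970. *Ucp1*, the uncoupling protein of thermogenic fat, had a log2 ratio of 1.55. *Dio2*, which activates thyroid hormone, had 12.6, 10.8 and 50.6 normalized counts in wild-type against 52.0, 26.2 and 20.7, with overlap, and *Elovl3*, a fatty acid elongase, had 3 reads in all. Reads per library were not worked out for the 4 higher markers, and their part in the *Prkag3* and *Prkab2* values was not tested.

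**Figure D4:**
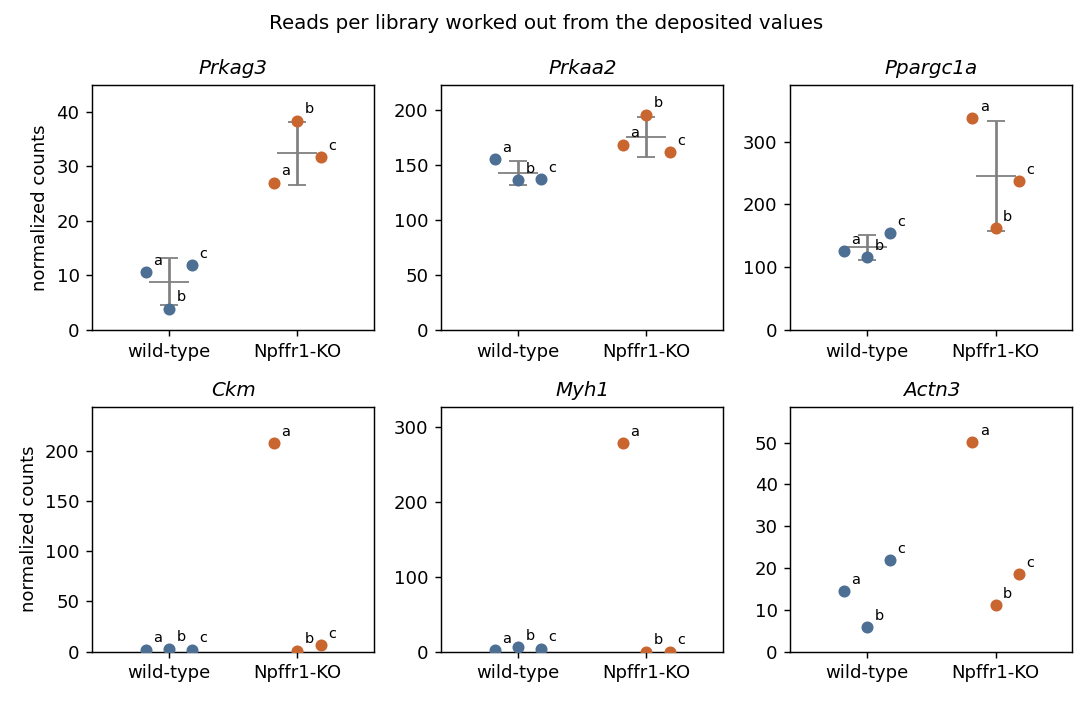
Normalized counts in each library, worked out from the deposited values, for *Prkag3*, *Prkaa2* and *Ppargc1a* (upper row, bars give mean ± SD of 3 libraries) and for the muscle genes *Ckm*, *Myh1* and *Actn3* (lower row, points only). Letters name the libraries within a genotype. For *Prkaa2* and *Ppargc1a*, several combinations of reads matched and only the one used is drawn. The *Prkag3* libraries lie between 3.92 and 11.9 in wild-type and between 26.98 and 38.3 in Npffr1-KO, while *Ckm* and *Myh1* lie mainly in library Npffr1-KO a.

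By share of the summed gamma level per kilobase, *Prkag3* was 0.238% in wild-type and 0.563% in Npffr1-KO, so it stayed a minor isoform. *Prkag1* took 58.8% and 59.5%, and *Prkag2* 41.0% and 39.9%. The level of gamma1 was 1.44-fold that of gamma2 in wild-type and 1.49-fold in Npffr1-KO, and it was 247-fold and 106-fold that of gamma3. The order of gamma1 and gamma2 turned when values were not divided by length, with shares of 47.6% and 52.1% in wild-type. The gamma sum was 1671 per kilobase in wild-type and 1871 in Npffr1-KO, a log2 ratio of 0.16. It was not centred either, and genes of like length had a median log2 ratio of 0.118 for *Prkag1* and 0.022 for *Prkag2*.

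Around the start sites, the promoters of the subunits differed in base composition. RefSeq windows from 250 bases before to 50 bases after the start (build GRCm38.p6) were matched for all 7 genes, 9 windows in all since *Prkag2* has 3. Their GC content ran from 50.3%, at one of the *Prkag2* starts, to 82% at *Prkaa1*, with 54% at *Prkag3* and 68% at *Prkab2*, against a median of 52.7% over 32851 promoters. The search covered 3 motifs. The E-box CAGCTG and the core of the MEF2 site, with any base at its 4 central positions, read the same on both strands. The third, TATAAA, was searched on the strand of the gene only. They occur in 16.3%, 3.69% and 8.32% of all promoters of this length. Among the 9 windows only that of *Prkag3* held any of them, a single CAGCTG that begins 40 bases before the RefSeq start. It is shown, with the motif in capitals, because *Prkag3* was the subunit with the highest ratio; it lies at chr1:74748978-74749007 on the minus strand.
Prkag3: gcagtgcgggaaCAGCTGcgggttaagcgc
GENCODE M21 places the start of *Prkag3* at 74749221 on this strand, so by that annotation the motif lies inside the gene. A match to these letters describes the sequence and does not show that a factor binds there.

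Few genes around AMPK reached the fold, as was the case over all genes. Of 63 genes in 7 lists, all with an average of at least 10, 1 was higher and 3 were lower, where 4.37% and 4.78% of all genes were, and their median log2 ratio was -0.06, beside 0.01 for all genes. None of 8 upstream kinases and partners reached 0.5 in size. *Stk11*, the upstream kinase LKB1, had 2988 normalized counts in wild-type against 3012 in Npffr1-KO, and its partner *Cab39* had 2748 and 2489. Among 12 phosphatases and binding partners none reached it either, with 5681 and 5930 normalized counts for the phosphatase subunit *Ppp2ca* and 2746 and 3232 for the lysosomal anchor *Lamtor1*. The adiponectin input, which activates AMPK from outside the cell, showed no call among 5 genes. Adiponectin itself, *Adipoq*, had 37027 and 35360 normalized counts, and its receptor *Adipor2* had 12709 and 10268, a log2 ratio of -0.31.

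Among the substrates, no lipid enzyme reached the fold and 1 gene in each of the other lists did. None of 8 lipid metabolism substrates was called. The triglyceride lipase *Pnpla2* had 34348 normalized counts in wild-type against 31768 in Npffr1-KO, and hormone-sensitive lipase, *Lipe*, had 25413 and 25885. Of 10 autophagy, growth and mitochondrial substrates, *Ppargc1a*, a coactivator of mitochondrial biogenesis, was higher, with a log2 ratio of 0.83. Its libraries had 125.5, 115.5 and 153.8 normalized counts in wild-type against 337.3, 162.5 and 236.8 in Npffr1-KO. The genotypes did not overlap, and the log2 ratio of the means was 0.90, or 0.60 without Npffr1-KO a, its highest library, with no overlap either way. However, 5 combinations of reads matched the deposited average of *Ppargc1a*, and the one used was picked because its ratio also matched the deposited ratio. In most but not all of the combinations not used, the genotypes overlapped. Of 7 glucose handling substrates, *Txnip*, an inhibitor of glucose uptake, was lower, with 33021 normalized counts in wild-type against 21034 in Npffr1-KO and a log2 ratio of -0.65.

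The AMPK-related kinases, most of which share the upstream kinase LKB1, held the other calls. Of 13, none was higher and 2 were lower, beside 4.37% and 4.78% of all genes, and the median log2 ratio of the 13 was -0.20. *Brsk2*, a kinase best known from neurons, had 35.7, 92.0 and 48.6 normalized counts in wild-type a, b and c against 21.2, 19.2 and 27.3 in Npffr1-KO a, b and c. The genotypes did not overlap, the log2 ratio of the means was -1.38, and it was -1.34 without Npffr1-KO a. *Mark1*, a microtubule affinity regulating kinase, had 900.6 and 591.8 normalized counts, a log2 ratio of -0.61. Its libraries were not searched, since its average was above 210. Reads per library were available for 6 of the 63 genes, and the genotypes overlapped in the 4 others, which were not called. Among sampled genes with averages from 5 to 90, the range of *Brsk2*, the narrower search gave genotypes that did not overlap in 18.4%. At averages from 100 to 160, below that of *Ppargc1a*, this share was 28%.

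**Figure D5:**
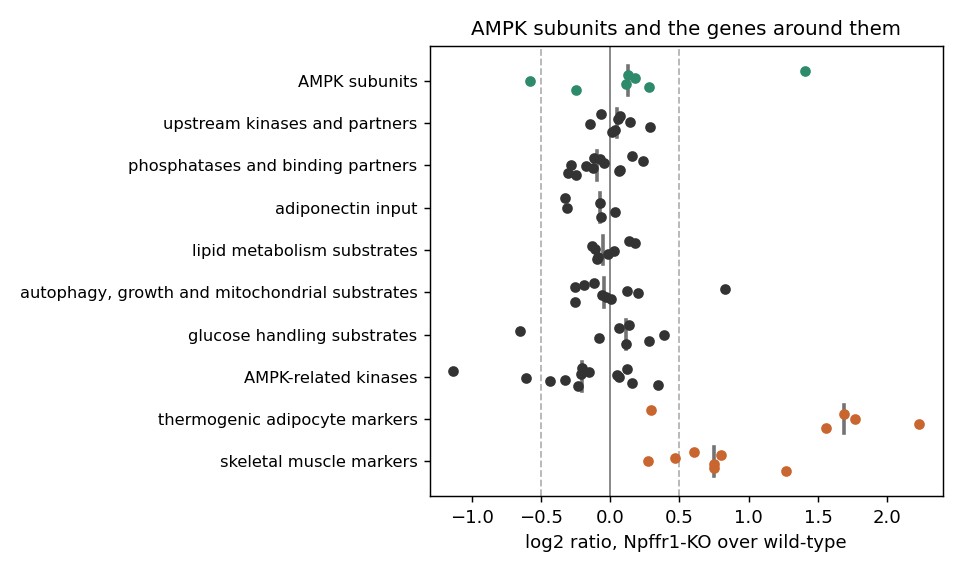
Log2 ratio of Npffr1-KO to wild-type, from the deposited genotype values, for the AMPK subunits (green), 7 lists of genes around AMPK (black) and markers of thermogenic adipocytes and skeletal muscle (orange). Each point is a gene with an average of at least 10, short vertical bars are medians and dashed lines mark 0.5 in size. Of the 63 black points, 1 lies to the right of the lines and 3 to the left, while 9 of the 12 orange points lie to the right. Over all genes with such an average, which are not drawn, 4.37% were higher and 4.78% lower by this measure.

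Markers of the other cell types of the depot were given the same reading. None of 5 adipocyte markers, 4 macrophage markers, 3 endothelial markers and 3 adipocyte progenitor markers reached 0.5 in size. The 3 endothelial genes were all below 0, with log2 ratios between -0.41 and -0.28, and *Cdh5* was the most abundant of them. Of 4 lymphocyte markers, 2 were higher, beside 4.37% of all genes with an average of at least 10. The ratios of the 4 lay between 0.08 and 0.74, and the most abundant of these markers, *Cd79a*, had 0.33. The levels of *Csf1r* for macrophages and *Ly6a* for progenitors had log2 ratios of -0.07 and -0.10. Whether these shifts bear on the subunit values was not tested.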

How the data were processed

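The 6 samples of iAT were measured by RNA sequencing, 3 of each genotype, and grouped by their genotype labels. The deposited values are a signal that the authors made from read counts by scaling to library size, with 1 value per gene and genotype. They are not means of the libraries: the split between the genotypes is pulled together, most for genes with few reads or with reads in 1 library, while the average of both values keeps that of the libraries. The submitters' processing notes name Bowtie2, RSEM and DESeq2, without version or role, and the genome build is not given in the sources used here. Columns of the authors' own comparison (log2 fold changes and p-values) were not used, nor was a second table that repeats selected genes. Log2 ratios were taken of the Npffr1-KO value over the wild-type value with a pseudocount of 0, levels were divided by listed gene length where genes were compared, and no test was run, since the subunits and lists were chosen with earlier results of these data known.

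The average of both values of a gene is the mean of 6 normalized counts. A gene with 1 read in the whole experiment has 1 of 6 averages, which give the library size factors, from 0.916 to 1.04, and, since all genes with the same such average lean to the same genotype column, the genotype of each library. Combinations of whole reads were searched for genes with an average of up to 210. For the genes reported here, every possible combination was searched at averages under 50, and a limited range from 50 on. The 200 sampled genes with an average between 5 and 90 were searched in a narrower range over most of that span. Of these, 196 had exactly 1 combination and 4 had none. In the wider range, 2 combinations matched each of *Mylpf* and *Tnni2*. From an average of 100 on, the combination had to match the deposited log2 ratio to within 0.05, after a slope of 0.927 fitted to 25 of 40 genes with 1 combination. On simulated data the reads were found for 100 of 100 genes (average 5 to 90), and for 35 of 40 genes (100 to 210), with 5 not given and 0 wrong. The simulation from 5 to 90 also used the narrower range over most of its span, and the wider search was not checked there. From 100 on, the simulated ratios followed the fitted slope with the deviations of those 25 genes, at most 0.0184 in size. This simulation therefore could not test the matching rule on genes that deviate more. Both combinations of *Tnnt3* did so, by -0.352 and -0.793. Reads gathered in 1 library were not simulated either. This search, its limits and the matching rule were set after the data were seen, including the combinations of *Prkaa2*, and the range was widened after a first one gave none for *Ckm* and *Myh1*.

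Named are all 7 subunits, *Npffr1*, list members past the fold or otherwise the 2 with the highest average, the highest marker of each list, and markers set beside a subunit. *B130046B21Rik*, *Gm17651*, *Prkag2os1* and *Prkag2os2* were named after their overlap with subunits was seen. Gene places and coding sequence are from GENCODE M21 (GRCm38) and promoters from RefSeq (GRCm38.p6). Alternatives were centring on the median gene or in 20 length classes, a pseudocount of 1 or 10, other folds and minimums, shares without length or by coding length, and leaving out libraries. Python 3.11.15, numpy 2.4.6, pandas 2.3.3 and matplotlib 3.10.9 were used.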

Additional observations from a re-analysis of the deposited data

How the results depend on the processing

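The direction of all 7 subunit ratios was the same under every alternative run, and *Prkag3* and *Prkab2* stayed past 0.5 in size. Centring on genes of like length moved *Prkaa1* to -0.15, *Prkab1* to 0.040 and *Prkag1* to 0.062. In wild-type, shares not divided by length were 91.4% for *Prkaa1*, 8.64% for *Prkaa2*, 74.9% for *Prkab1*, 25.1% for *Prkab2*, 47.6% for *Prkag1* and 52.1% for *Prkag2*. Per kilobase of coding length they were 91.3%, 8.74%, 74.95%, 25.0%, 60.8% and 38.9%, in the same order of genes. Among the 63 genes around AMPK, 3 were higher and 8 lower at a log2 ratio of 0.3, where 13.7% and 12.9% of all genes were, and 0 were higher and 1 lower at 1, where 0.483% and 0.314% were. Leaving out 1 library at a time, the log2 ratio of library means ran from 1.52 to 2.15 for *Prkag3* and from 0.21 to 0.36 for *Prkaa2*. Leaving out Npffr1-KO a alone for the genes around AMPK was chosen after seeing the data. The other 5 subunits had averages above 210 and were not searched by library. Their depth is known here only as a genotype sum, and no leave-out value is given. No paired analysis was possible because the table lists 1 value per genotype and the libraries worked out from it carry no sample numbers.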
